A study of Mus musculus with 7 samples.

Results

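Dissected preparations of the mouse seminal vesicle held a small set of mostly epithelial cells with the RNAs of 2 prostate secretory proteins, *Tgm4* and *Pbsn*. They were chosen by those RNAs alone, as cells with at least 500 detected genes, at most 10% mitochondrial UMIs and, for the sum of *Tgm4* and *Pbsn*, at least 20 UMIs and at least 0.5% of the cell's UMIs (unique molecular identifiers, each standing for 1 captured RNA molecule). In the 2 pooled libraries of the study 599 of 10326 kept cells met the rule, against 40342 kept cells in the whole series, and they are called Tgm4/Pbsn cells here. The libraries are droplet 3′ single-cell RNA-seq of dissected seminal vesicles from wild-type male mice, and in the pools a tag on the cells of each animal assigned them to a mouse.

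The aging pool held 10 C57BL/6J mice and gave 358 Tgm4/Pbsn cells of 5014 kept cells. By the names of the tags these were 2 young mice (Y1 and Y2, 3 months old), 2 controls and 2 rapamycin-treated mice at 20 months (20C1, 20C2, 20R1 and 20R2) and 2 of each at 28 months (28C1, 28C2, 28R1 and 28R2). The diet pool held 8 FVB/NJ mice, all 3 months old, and gave 241 of 5312 kept cells. It had 2 mice each on control diet (Ctrl1, Ctrl2), high-fat diet (HF1, HF2), low-protein diet (LP1, LP2) and caloric restriction (CR1, CR2). Strain, sequencing library, treatments and most of the ages divide along the same line, so between the pools they cannot be told apart. By the tags, rapamycin was given only in the aging pool, and the altered diets only in the diet pool. The kept cells of a mouse held 974010 to 14753284 UMIs, and the 5 other libraries each came from 1 FVB/NJ mouse. Of those, 2 were labelled as young (Y) and old (Old), and 3 belonged to a diet experiment, as control (C), HF and LP.

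*Tgm4* encodes the prostate transglutaminase, which crosslinks seminal vesicle proteins when semen clots into the copulatory plug. *Pbsn* encodes probasin, an androgen-dependent lipocalin of the rodent prostate whose promoter is widely used to direct transgenes to prostate epithelium. The seminal vesicle grows from the Wolffian duct and secretes the Svs proteins, whereas the prostate grows from the urogenital sinus. In rodents the anterior prostate, or coagulating gland, lies against the seminal vesicle, and whether the Tgm4/Pbsn cells came from the vesicle wall or from adjoining tissue was not tested.

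On the mm10 assembly *Tgm4* lies at chr9:123034726-123067561 on the plus strand and *Pbsn* at chrX:77837901-77853623 on the minus strand. The promoters of both genes that define the cells are shown from 250 bases before to 50 bases after the RefSeq start (GRCm38.p6), next to *Pate9*, a small secreted Ly6-type protein that was high in the cells, and *Svs5*, the most abundant seminal vesicle product. Capitals mark every match, on either strand, to the steroid receptor core AGAACA, the forkhead motif TGTTTAC or the HOXB13 motif CAATAAA.
Tgm4 promoter, chr9:123034491-123034790, plus strand: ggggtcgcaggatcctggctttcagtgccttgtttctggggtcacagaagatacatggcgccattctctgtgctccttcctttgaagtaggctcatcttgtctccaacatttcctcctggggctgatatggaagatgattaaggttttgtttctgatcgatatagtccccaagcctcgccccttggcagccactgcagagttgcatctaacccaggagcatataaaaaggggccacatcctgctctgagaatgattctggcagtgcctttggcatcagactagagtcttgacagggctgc
Pbsn promoter, chrX:77853451-77853750, minus strand: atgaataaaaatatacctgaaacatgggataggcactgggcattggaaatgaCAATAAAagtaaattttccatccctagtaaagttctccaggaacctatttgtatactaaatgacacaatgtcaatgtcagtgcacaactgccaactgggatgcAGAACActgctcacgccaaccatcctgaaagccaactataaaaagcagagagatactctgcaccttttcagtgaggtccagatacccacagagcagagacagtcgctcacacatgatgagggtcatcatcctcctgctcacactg
Pate9 promoter, chr9:36541914-36542213, minus strand: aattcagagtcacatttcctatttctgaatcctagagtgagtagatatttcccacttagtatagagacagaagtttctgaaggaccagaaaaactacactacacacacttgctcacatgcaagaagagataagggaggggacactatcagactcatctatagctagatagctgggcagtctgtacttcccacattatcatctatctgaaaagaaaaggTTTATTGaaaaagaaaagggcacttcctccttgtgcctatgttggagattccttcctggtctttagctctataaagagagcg
Svs5 promoter, chr2:164332515-164332814, plus strand: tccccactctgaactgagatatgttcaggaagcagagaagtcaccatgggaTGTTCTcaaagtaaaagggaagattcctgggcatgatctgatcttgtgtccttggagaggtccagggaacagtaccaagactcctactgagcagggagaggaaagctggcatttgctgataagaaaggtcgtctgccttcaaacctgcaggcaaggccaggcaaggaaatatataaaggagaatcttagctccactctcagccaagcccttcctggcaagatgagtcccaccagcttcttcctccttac

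The *Pbsn* window held AGAACA and CAATAAA, the *Pate9* window CAATAAA on the opposite strand, the *Svs5* window AGAACA on the opposite strand, and the *Tgm4* window none of the 3 motifs. Among 32851 promoters of the same length 19.0% held AGAACA, 3.65% TGTTTAC and 4.60% CAATAAA. Of 16 genes searched, *Tgm4*, *Pbsn* and the genes with the largest rises described below, 13 had a promoter in the table, of which 5 held AGAACA, 0 TGTTTAC and 2 CAATAAA. A match is a description of the letters and not a binding site.

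In the Tgm4/Pbsn cells *Tgm4* took a median of 1.25% of UMIs (range 0 to 5.00%) and *Pbsn* 0.702% (range 0 to 6.63%), and their sum a median of 2.05% (quartiles 1.33% and 2.96%). Both RNAs were detected in 583 of the 599 cells, while 10 lacked *Tgm4* and 6 lacked *Pbsn*. These values chose the cells and are given without a test. Just inside the limits were cells at 0.505% and at 20 UMIs. Just outside were 88 cells with 20 UMIs or more but under 0.5% (up to 0.498%, median 31385 UMIs), and 85 cells past 0.5% but under 20 UMIs (up to 19, median 1618 UMIs). Of the 88 cells 53 gave 10% or more of their UMIs to Svs genes, so the percent limit keeps out deep cells rich in Svs RNA. Of the 88 cells 80, and of the 85 cells 67, were epithelial and count among the other epithelial cells below. Their part in the levels of that group was not tested.

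Depth differed between mice. Over all 599 cells the median was 15156 UMIs (861 to 107661) and 3438 genes, and the floor of 20 UMIs in the rule favours deep cells. The medians of single mice had a median of 19268 UMIs in the aging and 4645 in the diet pool, where 6 of 8 mice stood at 3105 to 5573 UMIs, near the 4882 of basal cells and below the 19881 of secretory cells. No cell barcode was shared within a pool, and 1 was shared between the pools, in no Tgm4/Pbsn cell.

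Free RNA gives UMIs in cells that do not express a gene, so the levels in leukocytes are given beside those in epithelial cells. In aging mice *Tgm4* stood at a mean of 14423 ± 1111 CPM (UMIs scaled to a common library total; SD, n = 7) in Tgm4/Pbsn cells, at 103 in Svs-rich secretory cells, 143 in basal cells, 122 in leukocytes and 45.2 in fibroblasts. In diet mice the means were 10685 ± 1890 (SD, n = 6), 27.0, 168, 27.2 and 26.1 CPM. Secretory cells exceeded leukocytes in *Tgm4* in 2 of 10 aging and 4 of 8 diet mice, and basal cells did in 5 of 9 and 8 of 8. *Pbsn* stood at 9203 ± 1863 and 8279 ± 1915 CPM in the Tgm4/Pbsn cells of the pools and at 79.1 and 21.0 CPM in secretory cells, beside 87.8 and 86.1 CPM in basal cells and 84.8 and 20.7 CPM in leukocytes. Basal cells exceeded leukocytes in *Pbsn* in 3 of 9 aging and 7 of 8 diet mice, and whether the low levels in other epithelial cells are free RNA was not tested.

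The label of a prostate-like epithelium was checked against markers that the rule did not use. Of the 599 cells 571 (95.3%) passed an epithelial gate of 12 keratin, claudin and other epithelial markers. In 13 mice with at least 10 Tgm4/Pbsn cells all 12 epithelial markers were detected over the mice together (12 in 11 mice, 11 in LP1 and 9 in 28C1), with a summed level of 5355 to 9728 CPM (median 7828) and *Cldn4* the most abundant. The leukocyte markers summed to 0 to 135 CPM (median 22.8, led by *Lyz2*) against 4998 CPM in leukocytes, and the fibroblast markers to 6.26 to 372 CPM (median 133, led by *Dcn*) against 5040 CPM in fibroblasts. Basal markers summed to a median of 298 CPM, led by *Krt14*, against 4508 CPM in basal cells. Markers of neighbouring organs were counted as well, but epididymal and urothelial cells were not sought in the series to set a reference level. Of 8 genes of epididymal principal cells *Spink8* was detected and *Gpx5* had 1 UMI, with sums of 15.8 to 826 CPM (median 177), while *Lcn8*, *Lcn9*, *Adam7*, *Cst11*, *Rnase9* and *Rnase10* were at 0. The median sum of that list was 94.6 CPM in secretory cells, 7.07 in basal cells and 5.10 in leukocytes. Bladder urothelium genes summed to 21.1 to 206 CPM (median 103, led by *Upk1b*), with *Upk3a* at 0, beside medians of 13.95 CPM in secretory cells, 13.3 in basal cells and 1.70 in leukocytes. Both medians were thus higher in the Tgm4/Pbsn cells than in those 3 classes. Basal cells nevertheless reached 4501 CPM on the epididymis list and 452 CPM on the urothelium list in their highest mouse. The part of these markers in the results was not tested.

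The Tgm4/Pbsn cells made up very different shares of the cells in different mice. In the aging pool they were 6.48% of kept cells in Y1 and 12.3% in Y2, 1.86% and 13.3% in the 20-month controls, 1.64% and 11.2% in the 20-month rapamycin mice, 2.01% and 0.371% in the 28-month controls, and 9.81% and 8.12% in the 28-month rapamycin mice. In the diet pool the shares were 5.11% and 2.87% on control diet, 6.15% and 8.02% on high-fat diet, 3.22% and 4.92% on low-protein diet, and 4.31% and 0.728% under caloric restriction. Mice given the same treatment could differ widely, as at 20 months, and with 2 mice in each no exposure was tested. The pool means were 6.70 ± 4.91% (SD, n = 10) and 4.42 ± 2.21% (SD, n = 8), a difference of 2.29 percentage points that did not pass a 2-sided permutation test over mice (p = 0.237). With a stricter rule of 40 UMIs and 2% the means were 4.19% and 1.56% (p = 0.0457), and as a share of epithelial cells they were 21.2 ± 10.9% and 11.9 ± 4.72% (p = 0.0385), both by the same permutation test and beside the deeper cells of the aging pool. Among cells with at least 4000 UMIs the means were 10.2% and 7.44%, a difference of 2.78 points that did not pass (p = 0.346, permutation test).

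**Figure D1:**
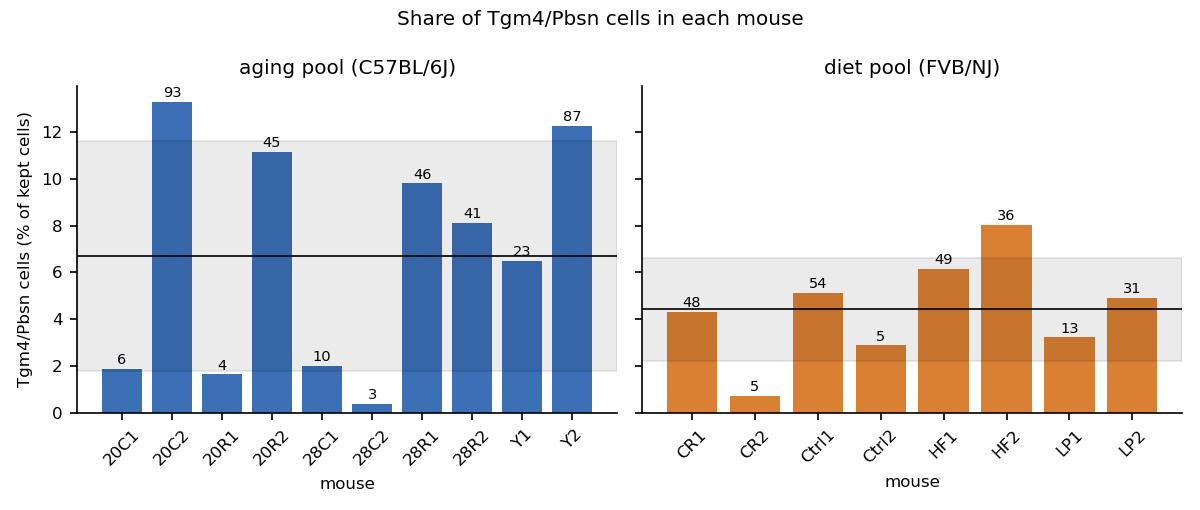
Share of kept cells (y axis, percent) that were Tgm4/Pbsn cells in each mouse (x axis) of the aging pool, left, and the diet pool, right, with the number of cells above each bar, the pool mean as a line and the mean ± SD as a grey band. Shares ran from 0.371% to 13.3% in the aging pool and from 0.728% to 8.02% in the diet pool, and the pools overlapped.

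In the libraries of single mice the cells were rare or not seen. The library labelled C had 4 in 4214 kept cells (0.0949%, exact 95% binomial interval 0.0259 to 0.243%) and that labelled HF 7 in 3849 (0.182%, 0.0732 to 0.374%). The libraries Y and Old had 0 in 9164 and 0 in 9113 cells (exact interval up to 0.0402% and 0.0405%), and LP had 0 in 3676 (up to 0.100%). Y and Old held no Svs-rich secretory cell either, and their kept cells had 274 and 222 Svs UMIs, against 22836784 in LP. Whether Y and Old hold seminal vesicle epithelium was not tested. These intervals cover counting error only.

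The question of which genes set the cells apart was asked within mice. UMIs were summed over the Tgm4/Pbsn cells of a mouse and over its other epithelial cells, and the sums were compared pairwise inside each animal (edgeR quasi-likelihood, mouse as block) in the 7 aging and 6 diet mice with at least 10 cells of each kind. Of 7672 genes tested 1997 (26%) were higher and 2171 (28.3%) lower in the Tgm4/Pbsn cells at a Benjamini-Hochberg adjusted p under 0.05. *Tgm4* and *Pbsn* were not tested. The other epithelial cells of the pools held 1323 Svs-rich secretory cells (10% or more of UMIs from Svs genes), 1061 basal cells (at least 2 UMIs of *Krt5*, *Krt14*, *Krt15* or *Trp63*) and 344 cells in neither class. In the mice compared, secretory cells were a median of 68.8% of them in the aging and 33.6% in the diet pool, and basal cells 22.1% and 48.4%. Against secretory cells 2110 of 6670 genes (31.6%) were higher and 1929 (28.9%) lower, and against basal cells 1832 of 4910 (37.3%) were higher and 1656 (33.7%) lower. The 3 comparisons share the Tgm4/Pbsn cells and are given side by side. CPM values are scaled within each comparison, and UMIs at 3′ ends are not divided by gene length.

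The most abundant RNAs included genes outside the rule. *9530053A07Rik* (chr7:28129466-28164811) took a mean of 2.87% of the UMIs of Tgm4/Pbsn cells over 13 mice and 0.0172% in secretory cells. *Mt1*, a metallothionein, took 1.58%, the seminal vesicle products *Svs5* and *Svs4* 1.22% and 0.677%, *Defb50*, a beta-defensin, 0.928%, and *Prdx6*, a peroxiredoxin, 0.670% against 0.0305% in secretory cells. Leukocytes of the same mice gave 0.886% to *Svs5* and 0.424% to *Svs4*. In the Tgm4/Pbsn cells *Svs5* ran from 0.0881 to 3.43% over mice (median 0.634%). The part of free RNA in these levels was not tested. The 10 most abundant genes took 11.7% of UMIs (8.13 to 13.8%), whereas those of secretory cells took 69.3% (63.0 to 73.8%). The transcriptome of the Tgm4/Pbsn cells was therefore far less dominated by a few RNAs.

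A posterior Hox factor of prostate identity was present in the Tgm4/Pbsn cells of every mouse compared. *Hoxb13* (chr11:96194316-96197447, plus strand), the posterior Hox gene of the prostate, stood at 147 to 202 CPM (median 175) and 104 to 171 CPM (median 136), against 1.77 to 13.2 and 6.54 to 24.7 CPM. The groups were separate in every mouse compared (17.6-fold, log2 4.13, SE 0.21, edgeR adjusted p = 7.81e-13).

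Of 13 listed prostate luminal genes 10 could be tested, of which 8 were higher and 2 lower, with a median log2 change of 3.06 beside −0.01 for all genes tested, of which 26% were higher and 28.3% lower. *Pate9* (chr9:36532397-36541963, minus strand), whose promoter is printed above, stood at 1540 ± 651 CPM against 62.7 ± 18.2 (SD, n = 13; log2 4.54, SE 0.14, edgeR adjusted p = 3.08e-16). *Azgp1*, a zinc-binding secreted glycoprotein, rose by 4.27 on the log2 scale, the prostate protease *Tmprss2* by 2.30, the transporter *Slc45a3* by 2.20 and the apolipoprotein *Apof* by 1.79, each in 13 of 13 mice. *Msmb*, the prostate secretory microseminoprotein, rose by 5.21, though in 11 of 13 mice, with 0 to 3208 CPM (median 58.2) in aging and 7.82 to 6669 CPM (median 2791) in diet mice. *Defb50* rose by 3.82 in 12 of 13 mice. The 2 lower genes were *Trpv6*, an epithelial calcium channel (log2 −4.03, 0 to 6.94 CPM in the Tgm4/Pbsn cells), and *Fkbp5*, a chaperone of steroid receptors (log2 −0.62). *Sbp* (100 UMIs in all Tgm4/Pbsn cells), *Acpp* (25 UMIs) and *Klk1* (0 UMIs) did not pass the filter on low counts. With no such filter 8 of the 13 were higher and 4 lower, beside 12.1% and 18.3% of all genes. The median log2 change was then 2.18. Against secretory cells the count was 8 higher and 2 lower, beside 31.6% and 28.9% of all genes, and against basal cells 6 higher and 1 lower of 7, beside 37.3% and 33.7%.

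**Figure D2:**
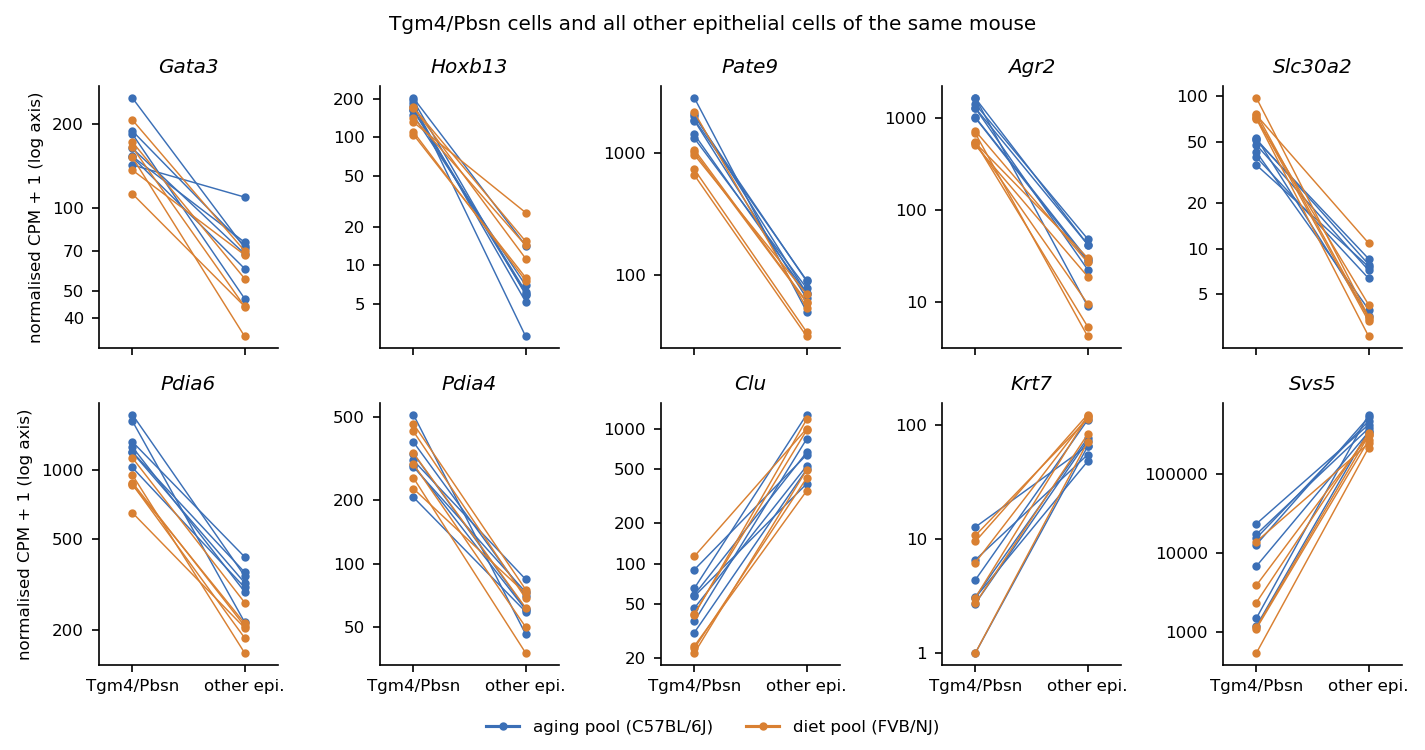
Normalised CPM + 1 (y axis, log scale) of 10 genes in the Tgm4/Pbsn cells and in all other epithelial cells (x axis) of the same mouse, with 1 line for each of 7 aging (blue) and 6 diet mice (orange). *Gata3*, *Hoxb13*, *Pate9*, *Agr2*, *Slc30a2*, *Pdia6* and *Pdia4* lay higher, and *Clu*, *Krt7* and *Svs5* lower, in the Tgm4/Pbsn cells of all 13 mice.

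Genes of the proximal luminal prostate, the duct segment next to the urethra, went the other way. All 4 that could be tested of 7 listed were lower, beside 28.3% of all genes. *Clu*, a secreted chaperone, stood at 49.5 ± 27.1 CPM against 712 ± 309 (SD, n = 13; log2 −3.77, SE 0.17, edgeR adjusted p = 5.86e-14). *Wfdc2*, a protease inhibitor of duct epithelia, had a log2 change of −4.08, *Ly6d* of −3.47 and the keratin *Krt7* of −4.02. *Krt7* was also among the epithelial markers that chose the comparison cells. *Wfdc2*, *Krt7* and *Ly6d* were low in the Tgm4/Pbsn cells, with means of 3.31, 6.80 and 16.5 CPM as scaled in the comparison with basal cells. Genes this low can pass the filter on low counts through the other cells alone, which sets their direction. Their count is therefore not a test against the share of all genes. Against basal cells all 4 were lower, beside 33.7% of all genes, and against secretory cells the 3 tested were lower, beside 28.9%.

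Other transcription factors of the region were mostly too low to test. *Gata3*, a factor of Wolffian duct and luminal epithelium, stood at 167 ± 34.6 CPM against 62.1 ± 19.2 (SD, n = 13) and was higher in 13 of 13 mice (log2 1.45, edgeR adjusted p = 1.05e-09), while *Hoxd9* was lower (log2 −3.57). *Hoxa9* and *Hoxa10*, the Hox genes of Wolffian derivatives, had 110 and 117 UMIs in all Tgm4/Pbsn cells together and did not pass the filter on low counts. With no such filter 9 of 10 listed Wolffian duct factors were tested. Of these 3 were higher and 5 lower (median log2 −2.04), beside 12.1% and 18.3% of all genes. Of the urogenital sinus factors *Foxa1*, a pioneer factor of prostate epithelium, was higher (log2 1.02, 12 of 13 mice) and *Sox9* lower (log2 −0.83), though with library-size scaling *Sox9* was higher (log2 0.48).

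Of 7 tested genes that respond to androgen, on which the prostate depends, 4 were higher and 3 lower, beside 26% and 28.3% of all genes. Beside *Tmprss2*, the higher ones were *Acsl3*, a fatty acid activating enzyme (log2 2.59), *Ncoa4*, a receptor coactivator and ferritin cargo receptor (log2 1.5), and *Zbtb16* (log2 0.87). *Ndrg1* (log2 −1.84), *Pmepa1* (log2 −1.23) and *Fkbp5* were lower, though with library-size scaling *Fkbp5* (log2 0.71) and *Pmepa1* (log2 0.10) had the opposite sign.

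Seminal vesicle products were the genes with the largest falls, and all 12 tested were lower, beside 28.3% of all genes, with a median log2 change of −6.37. *Svs5* (chr2:164332740-164334396, plus strand) stood at 1193 to 23269 CPM (median 12737) in the Tgm4/Pbsn cells of aging mice and 546 to 13856 CPM (median 1757) in diet mice, against 335130 to 555430 and 212990 to 327420 CPM. The levels were below those of the other epithelial cells in every mouse compared, and their spread among mice moved with a few Svs-rich cells. In CR1 Svs genes took 0.155% of the UMIs of the median Tgm4/Pbsn cell but 4.78% of the UMIs summed over its cells, and in Y1 0.874% and 8.60%. With epithelial-gated cells under 10% Svs the median log2 change of the products was −8.21. The largest falls by log2 change were *Svs2* (−6.63), *Pate4* (−6.62), *Svs3b* (−6.40), *Svs5* (−6.40), *Svs4* (−6.39), *Svs6* (−6.35), *Svs3a* (−6.33), the protease inhibitors *Spinkl* (−6.29) and *Spink1* (−6.28), and *Ceacam10* (−6.25). *Svs3a* and *Svs3b* are near copies whose UMIs may not be told apart. Svs genes chose the secretory cells, and the percent limit on *Tgm4* and *Pbsn* keeps out some Svs-rich cells, so these falls are partly set by the definitions. Against basal cells, which do not secrete Svs proteins, 0 of 11 products were higher and 0 lower by the edgeR test (median log2 0.53), beside 37.3% and 33.7% of all genes. This count depends on which cells and genes are kept. With epithelial-gated cells under 10% Svs all 11 were lower (median −1.44), beside 35.4% of all genes. That choice changed the gate and the Svs limit at once. With no filter on low counts 9 of 12 were higher, beside 19.2%.

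Svs RNA was also set against cells of the same mouse that are not secretory. Of the 599 cells 32 gave 10% or more of their UMIs to Svs genes. The median Tgm4/Pbsn cell gave 0.491 ± 0.253% (SD, n = 13 mice) and the median leukocyte 0.874 ± 0.440%. The share was lower in the Tgm4/Pbsn cells in 12 of 13 mice (difference −0.383 points, exact paired permutation test, 2-sided p = 0.00146). In fibroblasts the share was 0.484 ± 0.188%, and the difference was within the spread (p = 0.906, permutation test). In diet mice alone the difference from leukocytes was −0.107 points (exact permutation test, p = 0.125, lower in 5 of 6). The median share of Svs RNA in the Tgm4/Pbsn cells was thus below that of immune cells and near that of fibroblasts. Depth differed between these cells. In the aging pool the median mouse stood at 19268 UMIs in Tgm4/Pbsn cells and 3090.5 in leukocytes. In the diet pool the values were 4645 and 3126. The part of depth in the shares was not tested.

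Genes of protein folding in the endoplasmic reticulum were higher. Of 20 such genes 16 rose and 1, the signal peptidase subunit *Spcs1* (log2 −0.41, but 0.97 with library-size scaling), fell against all other epithelial cells, beside 26% higher and 28.3% lower of all genes. *Pdia6*, a disulfide isomerase, stood at 1028 to 1751 CPM (median 1264) in aging and 652 to 1132 CPM (median 875) in diet mice, against 216 to 417 and 158 to 263 CPM in the other epithelial cells. The groups were separate in every mouse compared (4.23-fold, log2 2.08, SE 0.10, edgeR adjusted p = 2.73e-13). *Pdia4* rose by 2.39, the stress-induced *Creld2* by 2.02 and *Sdf2l1* by 1.58, and the abundant chaperone *Hspa5* (BiP) by 0.66 in 10 of 13 mice. *Agr2* (chr12:35992907-36004087, plus strand), an isomerase of mucus-secreting cells, was not on the list but rose by 5.43 (SE 0.23, edgeR adjusted p = 2.52e-14), with 1012 to 1672 CPM in aging and 509 to 728 CPM in diet mice against at most 47.5 CPM. Against secretory cells 11 of the 20 rose and 4 fell, namely *Ssr4* (−0.56), *Spcs1* (−0.81), *Spcs2* (−0.62) and *Sec61b* (−0.25), which serve entry into the reticulum and were higher under library-size scaling, beside 31.6% and 28.9% of all genes. Against basal cells all 20 rose, with a median of 2.07, beside 37.3% of all genes.

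Zinc and metal-binding genes were divided. The prostate is known for storing zinc and secreting citrate. The zinc exporter *Slc30a2* stood at 34.3 to 52.2 CPM in aging and 69.9 to 96.2 CPM in diet mice, against at most 9.84 CPM in other epithelial cells (log2 3.58, SE 0.22, edgeR adjusted p = 1.03e-11). The metallothioneins *Mt1* (9839 ± 4159 against 4576 ± 1752 CPM, SD, n = 13; log2 1.08) and *Mt2* (log2 0.86), the citrate carrier *Slc25a1* (log2 0.63) and *Acly* (log2 0.38) were higher, and the transporters *Slc30a4* (log2 −1.38) and *Slc39a1* (log2 −0.54) lower, making 5 higher and 2 lower of 9 tested, beside 26% and 28.3% of all genes. With library-size scaling 8 of the 9 were higher and 0 lower, beside 6905 higher and 281 lower of all 7672 genes. Under that scaling *Slc39a1* turned (log2 0.81) and *Slc30a4* did not pass (log2 −0.08). *Mt3*, a metallothionein best known from the brain and not on the list, stood at 536 ± 207 CPM against 16.9 ± 7.89 (SD, n = 13). Of 8 genes of polyamine synthesis, for which the prostate is also known, 2 rose, spermine synthase *Sms* (log2 1.60) and *Azin1* (log2 0.36). A further 3 fell, *Odc1* (−0.44), *Srm* (−0.37) and *Sat1* (−0.66). Under library-size scaling all 8 were higher, as were 6905 of all 7672 genes. The polyamine shares were near those of all genes. Against secretory cells *Odc1* was higher (0.28). Of the transglutaminases other than *Tgm4*, *Tgm2* alone passed the filter and was lower (log2 −1.50), a change that did not pass with library-size scaling (log2 −0.15).

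The largest rises were led by *Ren1* (chr1:133350510-133360325, plus strand), the renin gene, at 800 to 6176 CPM (median 1752) in aging but 5.66 to 111 CPM (median 38.8) in diet mice, against at most 42.7 CPM in the other epithelial cells. It was higher in 13 of 13 mice (log2 6.09, SE 0.33, edgeR adjusted p = 1.71e-12), though the level differed widely between the pools. The secreted factor *Fgl1* (log2 5.93), the complement proteases *C1rb* (5.53) and *C1s2* (5.33), each with a close paralog, and the lipase relative *Pnliprp1* (4.97) also encode secreted proteins. The fucosyltransferase *Fut9* (5.11), the Rac regulator *Chn2* (5.08), *Mt3* (4.99) and the galactosidase-like *Glb1l3* (4.86) followed. Beside *Agr2* and *Pate9*, given above, there were also the noncoding *Gm37223* (5.76), *9530002B09Rik* (5.60) and *9530053A07Rik* (5.54; 17868 ± 3859 against 410 ± 176 CPM, SD, n = 13).

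Against secretory cells the largest rises were *9530002B09Rik* (log2 6.28), *Ren1* (5.91), *Gm37223* (5.85), *9530053A07Rik* (5.85), *Agr2* (5.64), *C1s2* (5.63), *C1rb* (5.57), *Fut9* (5.36), *Mt3* (5.33), *Glb1l3* (5.18), *Hoxb13* (5.13), *Defb50* (5.09), *Chn2* (5.06) and *Pnliprp1* (4.96). The falls were again seminal vesicle products, from *Svs2* (−7.35) to *Spink1* (−6.99), with *Sva* (−7.05) among them. Against basal cells the rises were *9530053A07Rik* (7.33), *9530002B09Rik* (6.76), *Gm37223* (6.70), *Gsdma*, a pore-forming gasdermin (6.43), *Pate9* (6.43), *C1rb* (6.38), *Agr2* (6.21), *Fgl1* (6.17), the ribonuclease *Rnase1* (5.98), *Pnliprp1* (5.93), *Chn2* (5.92), the proton pump *Atp12a* (5.90), *C1s2* (5.82), the growth factor *Egf* (5.76) and *Glb1l3* (5.71). The falls there were *Wfdc2* (−5.38), *Krt7* (−5.19), *Ly6d* (−4.81), *Akap12* (−4.53), the actin bundler *Fscn1* (−4.41), *Lcn2* (−4.32), *Krt17* (−4.11), *Krt14* (−4.01), *Pltp* (−3.94) and *Apoe* (−3.88), and *Krt14* was used to choose the basal cells.

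**Figure D3:**
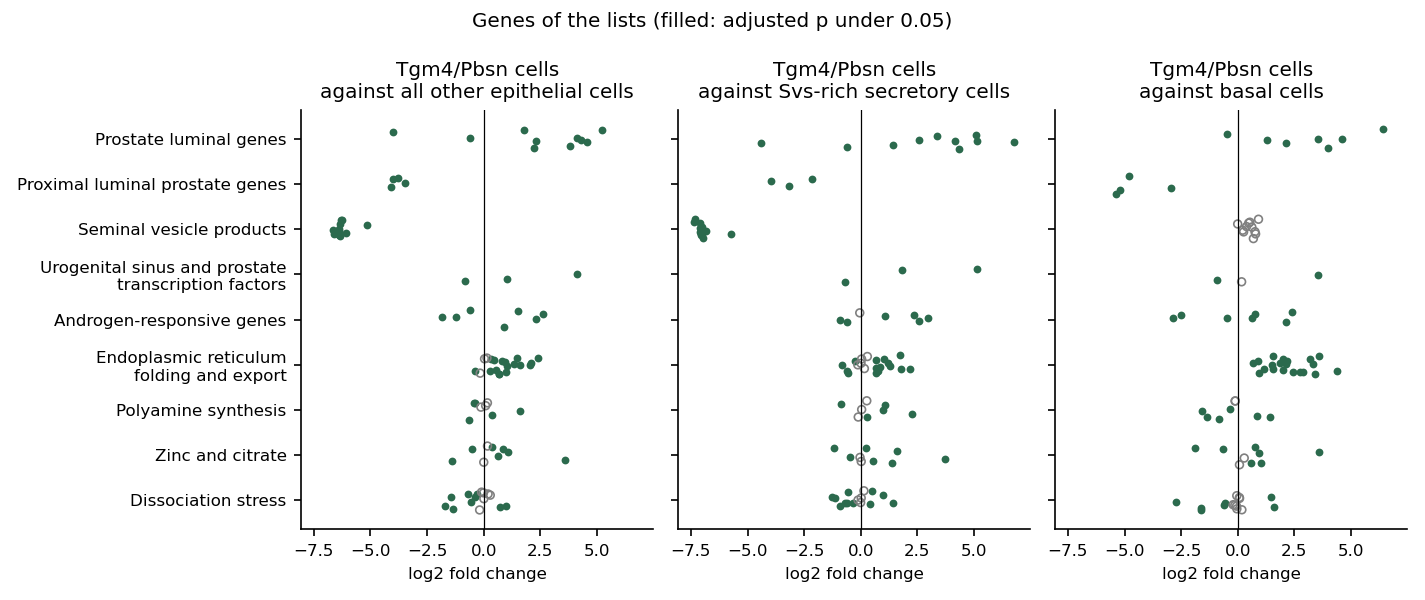
Log2 fold change (x axis) of each tested gene of 9 lists (rows) in the Tgm4/Pbsn cells against all other epithelial cells, Svs-rich secretory cells and basal cells of the same mice. Filled points had an edgeR adjusted p under 0.05 and open points did not. Seminal vesicle products lay near −6.37 at the median in the left panel, prostate luminal genes at 3.06, and genes of the endoplasmic reticulum were all right of 0 against basal cells.

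Of 15 tested genes that respond to tissue dissociation 7 were lower and 2 higher, beside 28.3% and 26% of all genes. With library-size scaling 12 were higher and 0 lower, beside 6905 higher and 281 lower of all 7672 genes. The lower ones included *Junb* (log2 −1.45), *Ier3* (−1.73), *Zfp36* (−1.36), *Dusp1* (−0.71) and *Fos* (−0.55), and the higher ones were *Hspa1b* (0.96) and *Nr4a1* (0.72). The part of RNA quality in the other differences was not tested. Of 8 proliferation genes *Tubb5*, a tubulin, alone passed the filter, and *Mki67* had 5 UMIs in all Tgm4/Pbsn cells. The log2 change of *Tubb5* was −0.10, which did not pass the edgeR test, against all other epithelial cells, and it was higher against secretory cells (0.37) and lower against basal cells (−0.75).

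Scaling changes some of these directions. In secretory cells a few RNAs take most of the UMIs. Scaling by library size in place of TMM moved the median log2 change of all genes from −0.01 to 1.37 against all other epithelial cells. Against secretory cells the median moved from 0.029 to 1.86. Under library-size scaling 6905 of 7672 genes were higher and 281 lower in the first comparison. The folding list had 20 higher and 0 lower, and the polyamine list 8 and 0. The prostate luminal list had 9 higher and 1 lower, a share near that of all genes under this scaling, and *Fkbp5* turned. The proximal luminal list (0 and 4) and the seminal vesicle products (0 and 12) were lower under both scalings.

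The Tgm4/Pbsn cells were also divided by which of the rule's RNAs was higher, which makes 2 groups by construction. *Tgm4* exceeded *Pbsn* in 448 cells, called Tgm4-dominant, and *Pbsn* was at least as high in 151, called Pbsn-dominant. Tgm4-dominant cells were 80.5 ± 7.81% (SD, n = 7) of Tgm4/Pbsn cells in aging mice (70.1% or more) and 70.0 ± 6.90% (SD, n = 6) in diet mice (61.3 to 81.3%). Over both pools Pbsn-dominant cells had a median of 10927 UMIs and 2422 genes, and Tgm4-dominant cells 15678 and 3557. In the diet pool these medians were 4902.5 and 1545, against 13313 and 3143. The part of depth in the differences below was not tested. Other genes were compared between these groups in 7 mice with at least 10 cells of each (20C2, 20R2, Y2, Ctrl1, HF1, HF2 and LP2). Of 3754 genes 38 (1.01%) were higher and 53 (1.41%) lower in the Tgm4-dominant cells.

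The genes higher in Pbsn-dominant cells were led by a prostate secretory protein and beta-defensins. *Msmb* (chr14:32142023-32158370, plus strand) stood at 1.74 to 61.6 CPM in Tgm4-dominant and 25.6 to 38995 CPM in Pbsn-dominant cells, and was lower in the former in 7 of 7 mice (log2 −9.41, SE 0.68, edgeR adjusted p = 2.70e-06). The ranges met only because LP2 had 25.6 CPM in its Pbsn-dominant cells. Over both pools 110 of the 151 Pbsn-dominant cells had no *Msmb* UMI. *Defb50* (chr8:21823539-21831296, plus strand) stood at 25.6 to 4299 against 1712 to 69878 CPM (log2 −5.89, edgeR adjusted p = 6.00e-05) and *Defb1*, another beta-defensin, at 102 to 1345 against 1482 to 7534 CPM (log2 −3.43). *Apoc1* (−2.03), *Igfbp5* (−1.94), *Fxyd3* (−1.62), the protease *Mmp7* (−1.52), *Hopx* (−1.48), *Cited2* (−1.14) and *Rnase1* (−1.06) were also lower in Tgm4-dominant cells. *Ren1* (2.40), *Bcas3* (1.75), *C1s2* (1.47), *Fut9* (1.40), *Mt3* (1.3) and *Glb1l3* (1.3) were higher in Tgm4-dominant cells. Smaller rises there were those of *Gm37223* (1.25), *Chac1*, a glutathione-degrading enzyme (1.15), *4931406C07Rik* (1.07), *Ccser2* (1.03), *Basp1* (0.92), *Gm53* (0.89), the carbonic anhydrase *Car2* (0.87), *Pgm2l1* (0.84) and *Gsdma* (0.83).

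A difference in *Hoxb13* or in the genes of folding was not detected between these groups. *Hoxb13* (log2 −0.06) did not pass the edgeR test, nor did any of 20 folding or 15 dissociation genes. Of 8 prostate luminal genes tested 0 were higher and 3 lower in Tgm4-dominant cells, *Msmb*, *Defb50* and *Apof* (log2 −1.87), beside 1.01% and 1.41% of all genes. *Gata3* was higher (log2 1.01) and *Sox9* lower (log2 −1.03).

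A few cells rich in *Msmb* stood apart, in a description made after the values were seen. In 21 cells of 9 mice *Msmb* took 0.5% or more of UMIs, and all 21 were Pbsn-dominant. Their medians were 0.0041% *Tgm4*, 1.17% *Pbsn*, 4.16% *Msmb* and 8.47% *Defb50*, whereas the other 578 cells had 1.29% *Tgm4*, 0.686% *Pbsn* and 0% *Msmb*. Ctrl1 gave 6 of them, 20R2 4, CR1 and HF2 3 each, and 20C2, 28R1, Y2, HF1 and LP1 1 each. A further 12 kept cells of the pools were as rich in *Msmb* but outside the rule, and 11 of those had more *Pbsn* than *Tgm4*, so the rule catches these cells only in part. *Defb50* took 0.5% or more in 56 of the 151 Pbsn-dominant cells (37.1%) and in 42 of the 448 Tgm4-dominant cells (9.38%). A further 75 kept cells of the pools, 71 of them epithelial, were as rich in *Defb50* but outside the rule.

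**Figure D4:**
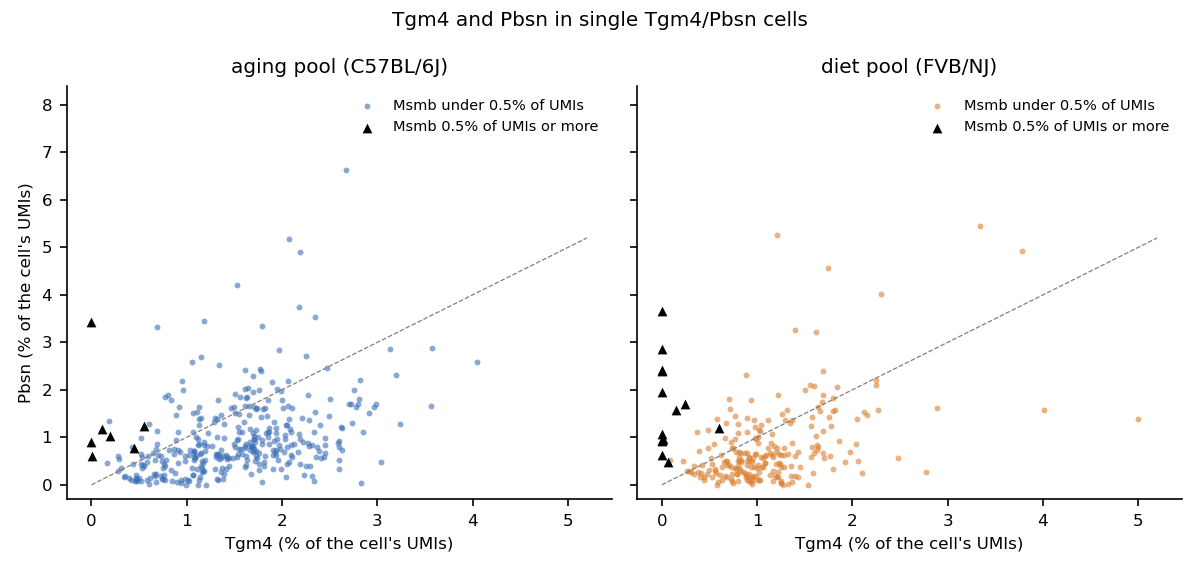
*Tgm4* (x axis) against *Pbsn* (y axis), each as percent of the cell's UMIs, in 358 Tgm4/Pbsn cells of the aging pool (left) and 241 of the diet pool (right), with a dashed line at equal shares. Black triangles are the 21 cells with 0.5% *Msmb* or more, which lie near 0 on the *Tgm4* axis and above the dashed line.

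Between the pools the Tgm4/Pbsn cells of 7 aging and 6 diet mice were compared across 6167 genes. Of these 411 (6.66%) were higher and 370 (6%) lower in the aging pool. With the stricter rule of 40 UMIs and 2% the counts were 104 and 93 of 3297. The reference genome is that of C57BL/6J, and sequence differences of FVB/NJ could change the counting, which was not tested.

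Of the most uneven genes *Ms4a5* was not seen in the diet mice and *Gdpd3* was nearly absent in the aging mice. *Ms4a5*, a 4-span membrane protein, stood at 42.4 to 332 CPM (median 127) in aging mice and was at 0 in all 6 diet mice. Together these were 1463 UMIs of 7953848 against 0 of 3002086, at least 184-fold higher if the diet pool is set at 3 counts over the group. *Ren1* stood at 1265 to 10392 CPM (median 2736) in aging and 9.37 to 176 CPM (median 61.3) in diet mice, without overlap (log2 5.53, SE 0.63, edgeR adjusted p = 1.24e-05). Mouse strains differ in whether they carry an additional, closely similar renin gene, which the reference lacks, and its part in this difference was not tested. *Gdpd3*, a lysophospholipase D, went the other way, at 0 to 6.06 CPM in aging and 84.4 to 142 CPM in diet mice (log2 −6.34, SE 0.31, edgeR adjusted p = 1.73e-10).

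Other genes of the aging pool were higher by smaller factors. *Chd9*, a chromatin remodeller, stood at 80.9 to 210 CPM (median 146) against 17.0 to 31.8 CPM (median 19.1), without overlap (log2 2.71). *Spink8* (442 ± 219 CPM, n = 7, against 26.4 ± 11.2, n = 6, SD; log2 3.96) is also the leading gene of the epididymis list, whose sum was 177 to 826 CPM in the aging and 15.8 to 43.7 CPM in the diet pool. *Gpx3*, a secreted glutathione peroxidase (log2 3.73), *Azgp1* (log2 3.09), the seminal vesicle product *Svs1* (log2 3.16) and the chemokine *Ccl4* (log2 3.46) were higher too. For *Azgp1* (8.26 to 270 against 4.89 to 37.5 CPM), *Svs1* (36.4 to 1535 against 24.4 to 188 CPM), *Gpx3* and *Ccl4* the mice of the pools overlapped. Leukocyte markers, beside *Ccl4*, summed to 6.15 to 104 CPM in aging and 0 to 135 CPM in diet mice.

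Lower in the aging pool were *Coro2a*, an actin-binding coronin (5.22 to 24.3 against 98.3 to 141 CPM, log2 −3.43), *Crip1*, a LIM protein (75 to 262 against 739 to 2456 CPM, log2 −2.76), and *Ddit3*, the stress factor CHOP (39.6 to 106 against 162 to 491 CPM, log2 −1.96, SE 0.22, edgeR adjusted p = 9.90e-06). None of these overlapped between the pools. *Eif3j2* (log2 −2.78), a near copy of *Eif3j1*, the mitochondrial carrier *Slc25a30* (−2.62), the complement inhibitor *Cd59a* (−2.41) and *Pcp4* (−2.06) were lower as well.

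**Figure D5:**
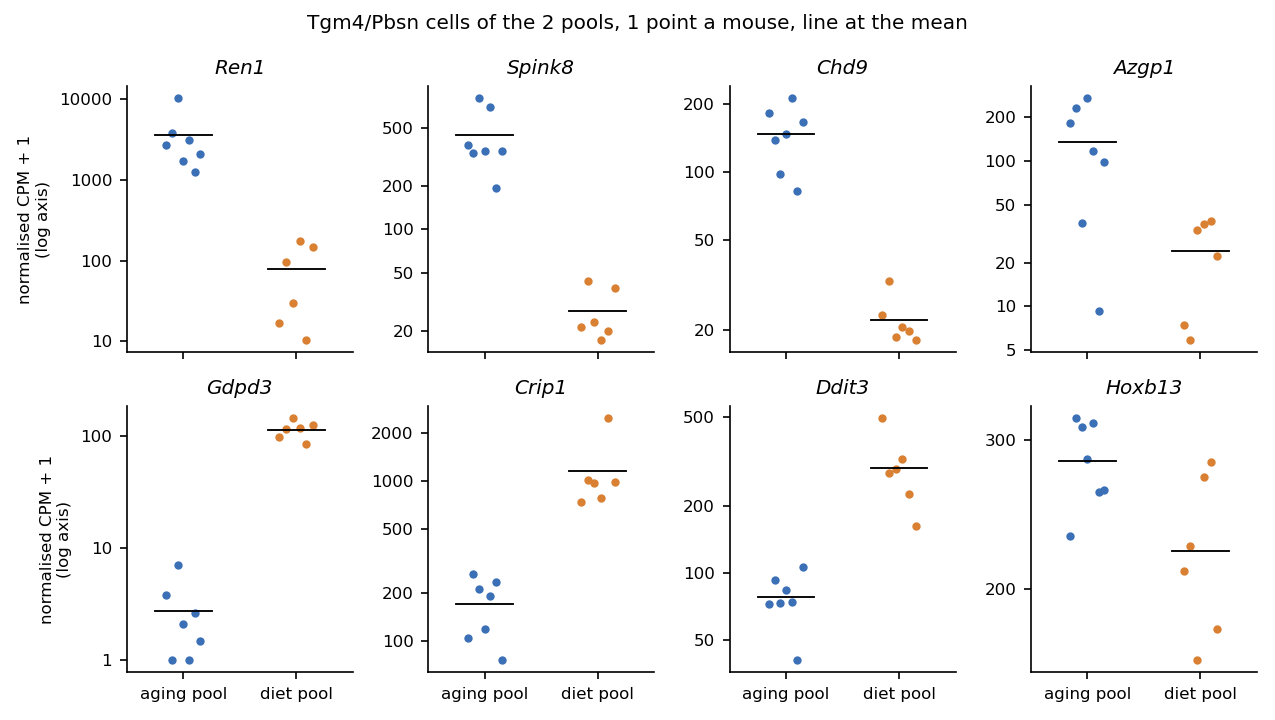
Normalised CPM + 1 (y axis, log scale) of 8 genes in the Tgm4/Pbsn cells of each mouse of the aging (blue, n = 7) and diet pool (orange, n = 6), with a line at the mean. *Ren1*, *Spink8*, *Chd9*, *Gdpd3*, *Crip1* and *Ddit3* did not overlap between the pools, whereas *Azgp1* and *Hoxb13* did.

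The lists are read against 6.66% higher and 6% lower of all genes in the aging pool. Of the folding genes *Pdia6* (log2 0.60), *Dnajc3* (0.79), *Spcs2* (0.70), *Ssr4* and *Spcs1* were higher in the aging pool and *Xbp1* (−0.46), *Dnajb9* (−0.71) and *Herpud1* (−0.74), which belong to the unfolded protein response, lower, making 5 and 3 of 20. *Mt1* (−0.85), *Mt2* (−0.79) and *Slc30a2* (−0.74) were lower in the aging pool and no zinc gene was higher, of 9 tested. Of 9 prostate luminal genes *Azgp1*, *Apof* (1.20) and *Pate9* (0.81) were higher and *Fkbp5* (−0.86) lower. Of 12 seminal vesicle products 4 were higher, *Svs1*, *Svs3a* (2.21), *Sva* (2.38) and *Dnase2b* (2.43), and 10 were when only epithelial-gated cells under 10% Svs were kept. The share of Svs RNA in leukocytes was 1.26% in the aging and 0.425% in the diet pool, so it moved with the same pool, and its part in the result was not tested.

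The contrast of Tgm4/Pbsn cells with the other epithelial cells was also tested for a difference between the pools. In 1 model over both pools 85 of 9475 genes (0.897%) had a larger and 103 (1.09%) a smaller log2 change in the aging pool by the edgeR test of the difference. The other epithelial cells were mainly secretory in the aging pool and held more basal than secretory cells in the diet pool, so the difference was also tested with 1 of these classes as the reference, a choice made after seeing the data. With secretory cells 97 differences passed and with basal cells 104. Of the 16 genes named here 7 passed with the same sign against secretory cells and 4 against basal cells, and *Crip1*, *Ramp1* and *Txnip* passed against both. *Hoxb13* was 30.1-fold higher in Tgm4/Pbsn cells of aging and 10.7-fold in those of diet mice (difference in log2 1.48), with 175 and 136 CPM in the Tgm4/Pbsn cells and 5.82 and 12.7 CPM in the reference. Its difference was −0.40 against secretory cells (edgeR adjusted p = 0.833) and 1.46 against basal cells (edgeR adjusted p = 0.0779), neither of which passed. *Mme*, the peptidase neprilysin, was 13.8-fold and 2.90-fold higher (2.47), with a difference of 0.34 against secretory cells that did not pass and of 3.09 against basal cells that did.

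Of genes with a larger change in the diet pool, *Ddit3* had a fold of 1.01 in aging and 3.90 in diet mice (difference −1.93, edgeR adjusted p = 1.02e-07), *Herpud1* of 0.953 and 3.33 (−1.81), and *Syvn1*, a ubiquitin ligase of the reticulum, of 2.80 and 7.71 (−1.84). All 3 passed against secretory cells (−1.66, −1.28 and −1.95) and none against basal cells (−1.27, −0.11 and −0.23). *Crip1* (0.162 and 1.23; −2.94, edgeR adjusted p = 1.16e-06) and *Ramp1*, a receptor-modifying protein (0.287 and 2.32; −2.94), lay on opposite sides of 1 in the pools. *Txnip*, a regulator of thioredoxin, was lower in both (0.0532 and 0.281; −2.47). *Mat2a*, a methionine adenosyltransferase, had folds of 2.03 and 0.894 (1.19), the matrix gene *Ccn1* of 1.18 and 0.562 (1.10) and *Bglap3* of 1.37 and 0.317 (2.39). The remaining named genes were *Ceacam1* (1.77), *Basp1* (1.45), *Pdlim4* (1.40), the folate receptor *Folr1* (−1.97) and *Pdzk1ip1* (−1.61). These last 5, *Mat2a* and *Ccn1* passed against neither secretory nor basal cells alone. With library-size scaling the median of all genes moved from −0.006 to 0.589. Under that scaling 2815 differences were larger and 41 smaller, so the balance of directions depends on the scaling.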

How the data were processed

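Seminal vesicle cells of 18 tagged mice in 2 pools and of 5 single mice were profiled by droplet 3′ RNA-seq. The deposited values are raw UMI counts per gene and cell, which the authors made with Cell Ranger (6.0.1 for the pools and 3.1.0 for the single mice, per the file headers) on mm10. Seurat is named in the submitters' processing notes, but its output was not used here. In the pools each deposited matrix holds 1 mouse. The 12 tag rows were left out, leaving 32285 genes. Cells with under 500 genes or over 10% mitochondrial UMIs were removed. Doublets between mice were removed by the tags before deposit, and no caller was run for others.

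Epithelial cells had at least 3 UMIs on 12 epithelial markers and more than on the leukocyte or stromal lists. Leukocytes and fibroblasts had at least 3 UMIs of theirs. Counts were summed per mouse and class (at least 10 cells) and tested with edgeR 4.0.16 (TMM, filterByExpr, quasi-likelihood, Benjamini-Hochberg adjustment over all genes tested) in R 4.3.3, with the mouse as a block within mice. Same-numbered samples pair because both sums come from 1 animal. The mice are separate animals, and their number limits the precision beside the depth. DESeq2 1.42.0, library-size scaling, no filter, stricter rules, removal of Svs genes, each pool alone and no block were alternatives. The choice of members with at least 4000 UMIs, and of secretory or basal cells alone as the reference of the pool difference, were added after seeing the data. Shares were compared by permutation over mice, with SciPy 1.17.1, NumPy 2.4.6, pandas 2.3.3 and Python 3.11.15, and plots used matplotlib 3.10.9. Within 12 lists of 123 genes counts by direction are given. The genes named were the 15 largest rises and 10 largest falls (8 and 8 between pools) past an adjusted p of 0.05, with the same direction in every mouse and at least 100 CPM in the higher class, predicted names last. Some genes are not reported here and were left out of the lists and of the genes named. The members and lists were chosen with earlier results of these data known. On simulated counts with a log2 change of 2, edgeR recovered 100% of 196 changed genes among 8174 tested against all other epithelial cells, and 95% of 200 among 9177 for the difference between pools. Unchanged genes were 1.51% and 1.55% of the calls. Apart from the changed genes, the simulated classes had the same mean gene shares and 1 common dispersion. The simulation thus leaves out the real difference in composition between the classes and does not cover the choice of scaling. Gene positions are from GENCODE on GRCm38.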

Additional observations from a re-analysis of the deposited data

Results flagged for a closer look

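Single mice stood far from the others of their pool in 6 of 45 groups tested, where chance alone flags about 1 in 20. In the aging pool *Ren1* was highest in 28C1 at 10392 CPM (next 3841), *Pcp4* in 20R2 at 194 CPM (next 66.9) and *Msmb* in 20R2 at 5025 CPM (next 1152). In the diet pool *Chd9* was highest in Ctrl1 at 31.8 CPM (next 22.1), *Crip1* in LP1 at 2456 CPM (next 1008) and *Pate9* in LP1 at 3571 CPM (next 1744). CPM here are scaled within the comparison of the pools. The mouse 28C1 entered with 10 Tgm4/Pbsn cells and LP1 with 13.

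The contrast of Tgm4/Pbsn cells with the other epithelial cells differed between the pools for 188 genes by the edgeR test of the difference. The aging minus diet difference in log2 change was 2.47 for *Mme*, 2.39 for *Bglap3*, 1.77 for *Ceacam1*, 1.48 for *Hoxb13*, 1.45 for *Basp1*, 1.40 for *Pdlim4*, 1.19 for *Mat2a* and 1.10 for *Ccn1*. It was −2.94 for *Crip1*, −2.94 for *Ramp1*, −2.47 for *Txnip*, −1.97 for *Folr1*, −1.93 for *Ddit3*, −1.84 for *Syvn1*, −1.81 for *Herpud1* and −1.61 for *Pdzk1ip1*. Strain, library, treatment and age cannot be told apart in these differences. The mix of secretory and basal cells in the reference differs between the pools as well. With secretory cells alone as the reference 7 of these 16 genes passed with the same sign and with basal cells alone 4, with *Crip1*, *Ramp1* and *Txnip* in both.

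In libraries outside the comparisons, 4 Tgm4/Pbsn cells were seen in the single-mouse library labelled C and 7 in that labelled HF. With so few cells the exact interval for C is wide, 0.0259 to 0.243%, and covers counting error only.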

How the results depend on the processing

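The tests against all other epithelial cells (4168 genes called), secretory cells (4039) and basal cells (3488) have the mouse as a replicate block, and without the block 3851, 3805 and 3567 genes were called. Scaling by library size gave 7186, 6530 and, for the pool difference of the contrast, 2856 in place of 188, and the share of calls that were higher went from 47.9 to 96.1%, from 52.2 to 97.9% and from 45.2 to 98.6%. With no filter on low counts 6826 of 18806 genes were called against basal cells and 453 of 20084 for the pool difference (61.1% higher). Between Tgm4- and Pbsn-dominant cells there were 310 of 16462 in place of 91 of 3754. With secretory or basal cells alone as the reference, chosen after seeing the data, the pool difference had 97 (32% higher) and 104 calls (61.5% higher). Against basal cells the stricter rule of 40 UMIs and 2% gave 2294 of 3127 genes tested, in place of 3488 of 4910. Between the pools it gave 197 of 3297 in place of 781 of 6167. The aging pool alone gave 2078 of 2989 against basal cells. The cause of these moves was not tested. The share of Tgm4/Pbsn cells differed between the pools by 2.63 points under the stricter rule (permutation p = 0.0457) and by 9.35 points among epithelial cells (p = 0.0385), against 2.29 (p = 0.237). The Svs share differed by 0.0079 points from fibroblasts (permutation p = 0.906), and by −0.107 points from leukocytes in the diet pool alone (exact permutation p = 0.125). Of 2827 values of single genes under the alternatives, 2682 kept their direction and side of the threshold, 114 lost the call and 31 turned. The tally counts no gained calls. It does not describe genes that had no call to begin with, such as the seminal vesicle products against basal cells. Of the 31 that turned, *Herpud1* did so in the aging pool alone (log2 −0.032) and *Hoxb13* in the pool difference against secretory cells (−0.40). The other 29 turned under library-size scaling. Against all other epithelial cells they were the log2 changes of *Fkbp5* (0.71), *Sox9* (0.48), *Pmepa1* (0.10), *Spcs1* (0.97), *Sat1* (0.70), *Odc1* (0.91), *Srm* (1.03), *Slc39a1* (0.81), *Fos* (0.82), *Btg2* (1.05), *Ier2* (1.00) and *Dusp1* (0.64). Against secretory cells they were *Fkbp5* (1.22), *Sox9* (1.14), *Ndrg1* (0.92), *Ssr4* (1.28), *Sec61b* (1.60), *Spcs1* (1.03), *Spcs2* (1.22), *Srm* (0.99), *Slc39a1* (1.35), *Slc30a4* (0.60), *Fos* (1.26), *Junb* (0.55), *Btg2* (1.5), *Ier2* (1.28), *Ier3* (0.93), *Zfp36* (0.73) and *Dusp1* (1.15). DESeq2 called 4057, 3851, 3439 and 676 genes, in the 3 comparisons of cells and between the pools. Depth limits what could be tested, since a mouse entered with as few as 10 Tgm4/Pbsn cells.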
